A study of Paulownia elongata with 6 samples.

Results

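The transcripts described here are those that stood lower in every heat-treated leaf library of Paulownia elongata, a fast-growing tree, than in every control library. Levels were expressed as CPM, the estimated reads of a transcript model relative to 1000000 estimated reads in its library. A model was taken when it had 10 CPM or more in each of 3 control libraries and when its lowest control value was at least 3 times its highest value among 3 heat libraries. The rule found 86 of 43380 transcript models. They were 86 of the 9287 models that reached 10 CPM in each control, and these 9287 are the background used below. The members were chosen by the heat and control values themselves, so every difference between the groups is given as a description, with no test. The 86 models came from 86 genes and 86 assembly components, as the identifiers number them.

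Leaves of plants with a labelled age of 3 years, grown for 14 days in a mycorrhizal potting mix, were the source of total RNA. The 3 heat libraries came from plants exposed to 40 °C during 24 hours, and the 3 control libraries from plants at 25 °C. A cycle of 12 light and 12 dark hours is stated in the labels of both groups, as part of the heat treatment. Paired 76-base reads were made on an Illumina MiSeq, a small benchtop sequencer. Nothing in the labels says that the 3 libraries of a group were made from different plants, so the spread between libraries may be technical.

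In plants, a rise in temperature activates heat shock factors, which switch on genes for chaperones that hold proteins in shape. The other side of the response is a fall of many transcripts that serve growth and metabolism, through lower transcription and, as known from Arabidopsis, through faster decay of existing messenger RNA. The identifiers in the files are not paired with gene names, descriptions or sequences, so the functions of the members, and the leaf's cell type markers, were not analysed here. The identifier does give the component, gene, isoform and coding model, and the files give the coding length. These show how members relate to other models of the same transcript. In RNA from whole leaves, fewer cells of a type and less RNA per cell cannot be told apart.

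The libraries held 730315 to 2153266 estimated reads in the controls and 2425787 to 3570524 in heat, so 3 reads were worth 0.840 to 4.11 CPM. Controls 1 and 2 stood apart from the other 4 libraries. They listed 14122 and 14448 models at 0 reads, against 1182 to 3297 in the other libraries. Across all models, control 3 had Spearman's rho of 0.776 to 0.822 with the heat libraries and of 0.668 and 0.724 with controls 1 and 2. The fragment length that follows from the deposited effective lengths was 133 to 141 bases in controls 1 and 2 and heat 2, called short-fragment libraries here, and 159 to 166 bases in control 3, heat 1 and heat 3, called long-fragment libraries.

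As a group, the 86 models were a small share of the leaf transcriptome at 25 °C and a smaller one at 40 °C. They took 0.661%, 0.531% and 0.783% of the reads in controls 1 to 3, and 0.0627%, 0.0795% and 0.0639% in heat 1 to 3. The mean share was 0.658% ± 0.126 in the controls and 0.0687% ± 0.00937 in heat (SD, n = 3 per group). The median member stood at 47.5, 35.9 and 27.0 CPM in controls 1 to 3 and at 4.36, 4.62 and 3.77 CPM in heat 1 to 3. The heat libraries were close to each other, and the controls were spread more widely, with control 1 at the top of the median values and control 3 at the bottom. The mean heat CPM of a member was a median of 11.4% of its mean control CPM, from 0.598% to 27.2%, where the median over the 9287 background models was 73.4%. On the log2 scale with 1 CPM added, the difference of control over heat had a median of 2.84 over the members and of 0.43 over the background.

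**Figure D1:**
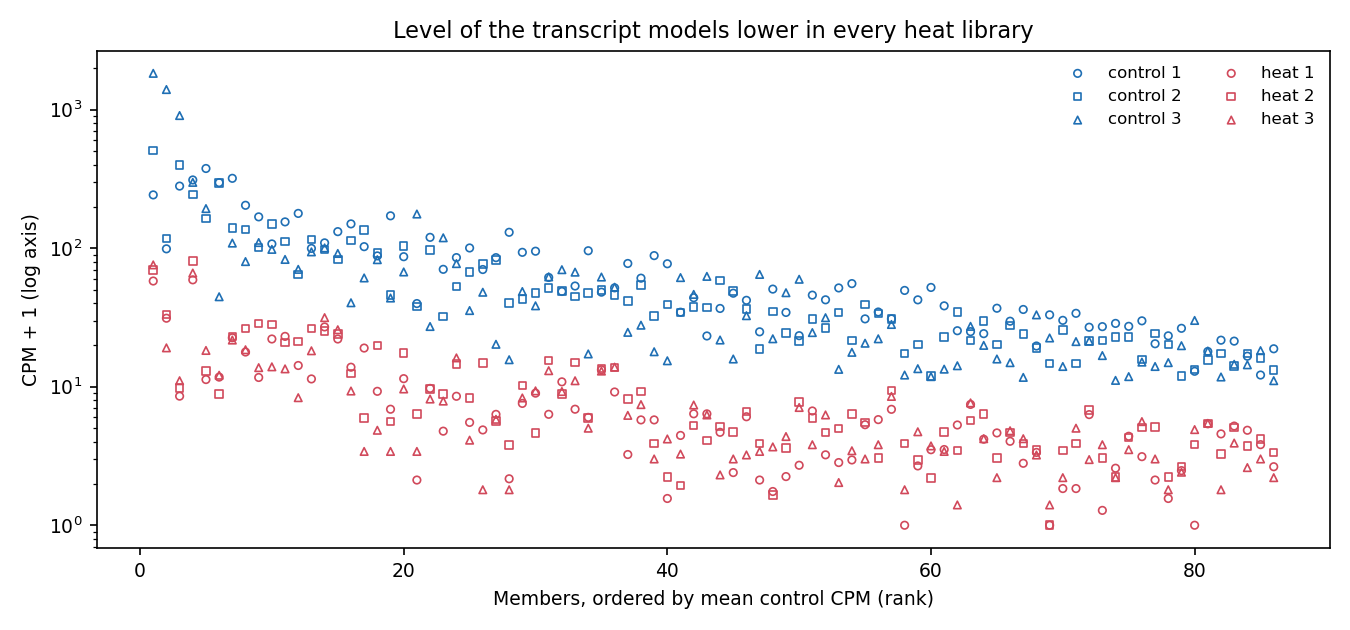
CPM plus 1 on a log axis for each of the 86 members in each library, ordered by mean control CPM, with blue symbols for the 3 controls and red symbols for the 3 heat libraries. The blue and red symbols of a member do not overlap, as the rule requires, and the controls of the first few members are spread far more widely than their heat libraries.

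The rule was met by 0.926% of the background models. The mirror rule, with 10 CPM or more in each heat library and a lowest heat value at least 3 times the highest control, was met by 429 of 12251 models, or 3.50%. Without the 3-fold distance, every heat library lay below every control for 2329 of the 9287 background models, or 25.1%. Most members were near the threshold, since 51 had a ratio of lowest control to highest heat from 3 up to 4, while 35 had 4 or more, 18 had 5 or more and 3 had 10 or more. The 3 members nearest to the threshold, of 285, 264 and 189 coding bases, had ratios of 3.005, 3.006 and 3.02. The 3 models just outside it, of 306, 369 and 264 coding bases, had ratios of 2.995, 2.994 and 2.97. A further 256 background models had ratios from 2 up to 3. The authors' deposited table calls 84 of the 86 members lower in heat at an FDR of 0.05, beside 3.43% of all 43380 models. It was made from the same 6 libraries, so nothing is read from that count.

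**Figure D2:**
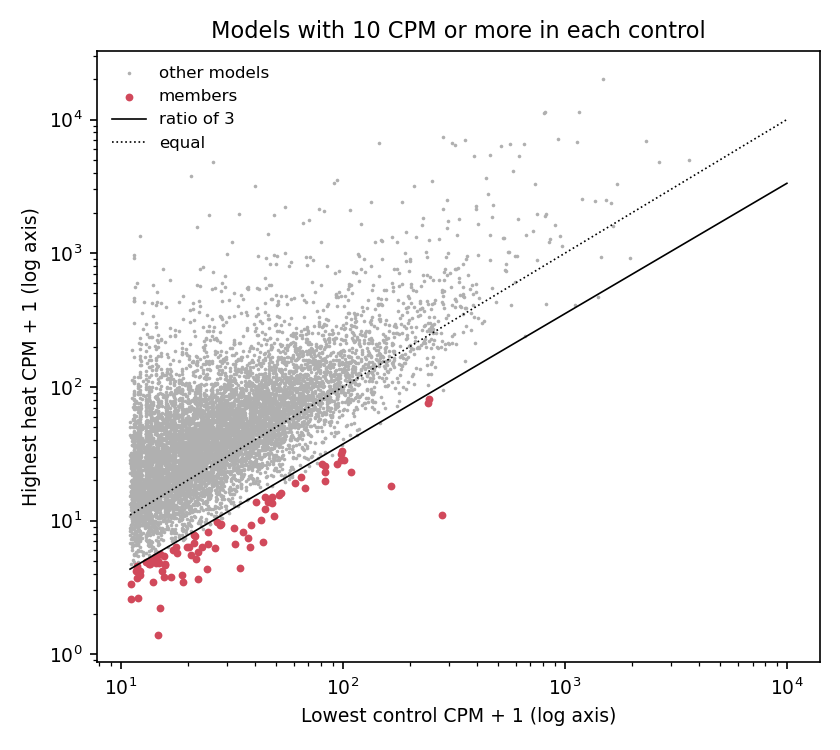
Highest heat CPM plus 1 against lowest control CPM plus 1, both on log axes, for the 9287 models with 10 CPM or more in each control. The 86 members, in red, lie below the solid line at a ratio of 3, and most lie close to it, while 2 of the members with a high control level lie well below the line.

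The number of models that met the rule changed by a different amount with each library left out. A rule that asks something of every library can only admit more models when a library is left out. It gave 108 models without control 1, 139 without control 2 and 1852 without control 3, and 143, 210 and 110 without heat 1, heat 2 and heat 3. With controls 1 and 2 both left out, so that control 3 was the sole control, 745 models met the rule. The rule gave 1008 models among the long-fragment libraries alone and 2246 among the short-fragment libraries alone. Leaving out a control also loosens the minimum of 10 CPM, so those counts come from a pool wider than the background. The size of that pool is not given here, so the counts cannot be compared as shares. The members' median log2 difference was 2.45 within the long-fragment libraries and 2.67 within the short-fragment libraries, where the background had 0.32 and 0.31. The lowest value of any member was 1.58 in the long-fragment and 1.52 in the short-fragment libraries. The rule's 3-fold gap and its minimum of 10 CPM keep these well above 0 in any subset of libraries, so nothing is read from them.

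The member with the highest mean CPM in the controls was TR38172|c0_g1_i1|m.75679, with 927 coding bases and no other model in its gene. It stood at 242, 509 and 1831 CPM in controls 1 to 3 and at 57.0, 68.5 and 74.8 CPM in heat 1 to 3. Control 3 was the highest library by a wide margin, and control 1 was nearest to heat. The means were 860 ± 851 CPM in the controls and 66.8 ± 9.05 CPM in heat (SD, n = 3 each), so the spread between the controls was nearly as large as their mean. The ratio of pooled reads, control over heat, was 16.8. Pooling, here and below, weights each library by its depth, and control 3 gave 3942 of this model's 4637 pooled control reads. By mean CPM, heat stood at 7.76% of control. The pooled ratio thus rests mostly on control 3. The exact 95% interval of that ratio, which like those below covers counting error alone, was 15.3 to 18.3. On the log2 scale the difference was 3.67 with all libraries and 2.47 without control 3. Per length it was lower in order, with the tenth highest mean control TPM among the members, where TPM is Salmon's abundance scaled by effective length.

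TR64724|c0_g1_i1|m.123228, of 279 coding bases, had the widest gap between the groups when heat libraries with fewer than 3 reads were counted as 3 reads. It stood at 280, 399 and 907 CPM in controls 1 to 3 and at 7.55, 8.81 and 10.1 CPM in heat 1 to 3. Its lowest control was 27.9 times its highest heat library. The means were 529 ± 333 CPM in the controls and 8.80 ± 1.25 CPM in heat (SD, n = 3 each). Pooled reads gave 72.1 times more in the controls (57.1 to 92.3). The log2 difference was 5.76, and 5.12 without control 3. It also had the highest mean control TPM of all members, at 1053 TPM ± 889 (SD, n = 3).

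Of all 86 members, 16 had a mean control level of 100 CPM or more, 38 lay between 30 and 100 CPM and 32 were under 30 CPM. The members below are given by coding length. A member of 495 bases came second by reads and had 98.0, 116 and 1398 CPM in controls 1 to 3 and 30.2, 32.2 and 18.1 CPM in heat 1 to 3. Control 3 was more than 10 times each other control, and its highest control was 14.3 times its lowest, the widest such range among the members. Its ratio of lowest control to highest heat was 3.05, close to the threshold. Together with the 2 models named above it held 52.8% of all member reads in control 3, but 9.37% and 19.3% in controls 1 and 2 and 13.8% to 16.1% in the heat libraries.

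A member of 1389 bases had 310, 244 and 298 CPM in the controls and 58.1, 80.2 and 65.2 CPM in heat. Its controls were close to each other, with a mean of 284 ± 35.4 CPM against 67.9 ± 11.3 CPM in heat (SD, n = 3 per group). A member of 219 bases had 376, 163 and 192 CPM in the controls and 10.3, 12.0 and 17.3 CPM in heat, a ratio of lowest control to highest heat of 9.43. One of 306 bases had 297 and 294 CPM in controls 1 and 2, but 43.6 CPM in control 3, and 7.83 to 11.1 CPM in heat. In that model control 3 lay between the other controls and the heat libraries. The member of 258 bases had 319, 139 and 108 CPM in the controls and 20.7 to 22.0 CPM in heat, so its heat libraries were nearly level. The next 3 by reads, of 189, 219 and 264 bases, had mean control levels of 139, 126 and 117 CPM and mean heat levels of 19.9, 17.0 and 20.4 CPM.

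Few members had 0 reads in a heat library, but many had few reads there. All had at least 1 read in some heat library, 3 had 0 reads in at least 1 heat library, and 33 had 10 or more reads in each. The median member held 15.6, 11.2 and 9.38 estimated reads in heat 1 to 3, and 7, 4 and 8 members held under 3. The member nearest to silence, of 885 bases, held 42.9, 10 and 46.3 estimated reads in controls 1 to 3 and 0, 0 and 1 in heat 1 to 3. That was 32.1, 13.7 and 21.5 CPM in the controls and 0.402 CPM in heat 3. The pooled ratio of 199 has an interval of 34.9 to 7938, because a single heat read stands behind it. A member of 300 bases came next to it, with 22.3, 19.2 and 13.9 CPM in the controls and 0.560, 1.24 and 0.804 CPM in heat, and a pooled ratio of 21.2 with an interval of 9.81 to 54.7. A member of 303 bases had 33.5, 33.4 and 60.4 CPM in the controls and 3.45, 0.942 and 2.26 CPM in heat. The other members with the widest gaps after the 219-base model, of 180, 186, 225, 186 and 768 bases, had lowest control values 6.90 to 7.91 times their highest heat values.

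The members differed in how much the controls agreed. The coefficient of variation among the 3 controls had a median of 39.9% over the members and 38.1% over the background, and it ran from 5.33% to 139% over the members. Among the heat libraries it had a median of 38.9% over the members and 29.8% over the background. Members had few reads in heat, with a median of 37.5 pooled over the 3 libraries, against 174 in the controls. The steadiest controls were in a member of 198 bases, at 29.9, 29.8 and 27.2 CPM, where heat stood at 5.87 to 8.37 CPM. A member of 636 bases had 108, 97.2 and 99.5 CPM in the controls and 24.3 to 30.5 CPM in heat.

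Control 1 was the highest control for 52 of the 86 members, control 3 for 21 and control 2 for 13. In shares this was 60.5%, 24.4% and 15.1%, beside 44.6%, 33.0% and 22.4% of the background. Both controls 1 and 2 lay above control 3 in 52 members. Control 3 was the lowest control for 60.5% of the members and for 52.6% of the background. In 7 of the 86 members the controls differed 5-fold or more. Against the mean of the heat libraries, the median log2 difference was 3.17 for control 1, 2.64 for control 2 and 2.29 for control 3, where the background had 0.51, 0.39 and 0.17. Across the 86 members, log2 CPM correlated at Pearson's r of 0.86 between controls 1 and 2, 0.62 between controls 1 and 3 and 0.75 between controls 2 and 3. It correlated at 0.79 to 0.84 between the heat libraries. These are descriptions across models that share libraries and depth, not across replicates.

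The members were short beside the background. Their median coding length was 301.5 bases, against 705 over the background and 789 over the 429 mirror models. Of the 86 members, 41 were under 300 bases, 30 were from 300 to under 600, 12 from 600 to under 1200 and 3 were 1200 bases or longer. The rule was met by 2.62% of background models under 300 bases, 1.27% from 300 to under 600, 0.382% from 600 to under 1200 and 0.136% at 1200 or more. The mirror rule showed no such order, with 3.17%, 4.02%, 3.01% and 3.82% in the same bands. No test stands behind this comparison, since models are not replicates of a condition.

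The background as a whole moved with length in the same direction. Its median log2 difference of control over heat was 1.41 under 300 bases, 0.75 from 300 to under 600, 0.29 from 600 to under 1200 and -0.15 at 1200 or more. Within the short-fragment libraries these medians were 1.47, 0.75, 0.11 and -0.57, and within the long-fragment libraries 0.66, 0.42, 0.26 and 0.09. The order by length was thus present in both classes and was steeper where controls 1 and 2 were the controls. Of the 41 members under 300 bases, 33 were highest in control 1, 2 in control 2 and 6 in control 3. Of the 30 from 300 to under 600 bases, 12 were highest in control 1, 6 in control 2 and 12 in control 3. The same shares over background models of these lengths are not given here, so nothing is read from these counts. The part that library differences tied to length play in the members' low heat values was not tested.

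**Figure D3:**
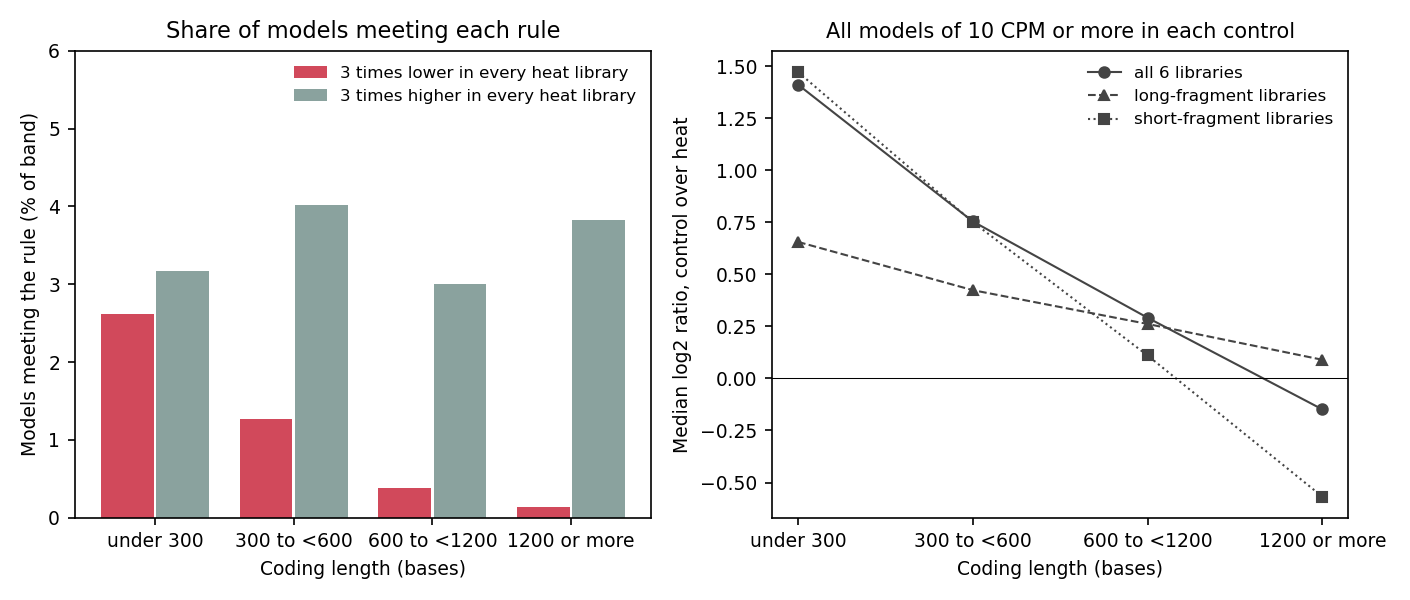
Left, the percentage of models in each band of coding length that met the rule (red, 2.62% to 0.136%) or its mirror (grey green, 3.01% to 4.02%). Right, the median log2 ratio of control over heat of all 9287 background models by band, over all 6 libraries and within the long-fragment and short-fragment libraries, which falls from short to long models in each.

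The 3 longest members had 1425, 1389 and 1248 coding bases and steady controls, with a highest control 1.21 to 1.27 times the lowest. The 1425-base member had 98.7, 115 and 93.1 CPM in controls 1 to 3 and 10.4, 25.4 and 17.2 CPM in heat 1 to 3. The 1248-base member had 60.6, 50.7 and 61.1 CPM in the controls and 5.32, 14.4 and 12.1 CPM in heat. In both, heat 2 was the highest heat library, as it was for 61.0% of the background. The rule itself set the groups apart. The pooled ratios were 5.94 and 5.98, with intervals of 4.90 to 7.25 and 4.65 to 7.75. The 1389-base member, described above, had a pooled ratio of 4.40 with an interval of 3.98 to 4.87.

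Membership depended on whether CPM or TPM was the measure. With the deposited TPM in place of CPM and the same thresholds, 82 models met the rule, of which 45 were among the 86. Those 45 are 52.3% of the CPM set and 54.9% of the TPM set. The TPM set was shorter still, with a median of 225 bases and 66 of 82 models under 300 bases. All 37 models that entered by TPM alone were under 300 bases, and the 41 that met the rule by CPM alone had a median of 423 bases. Of those 41, 37 had a TPM ratio of lowest control to highest heat under 3. In all 86 members the lowest control TPM was above the highest heat TPM. Their 3-fold gap in CPM favours this, since both measures come from the same reads. The same share over the background was not computed, so nothing is read from that count. On this scale the members took 1.06%, 0.796% and 1.17% of the total in controls 1 to 3 and 0.118%, 0.155% and 0.131% in heat 1 to 3. Per length, the members' mean control TPM had a median of 54.5, where the background had 21.1. By reads they were not higher, with a median mean control CPM of 39.1 against 42.0 over the background.

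Many members were one of several coding models read from the same assembled transcript. Of the 86, 49 were the single model of their gene, 30 shared their isoform with another model and 7 had models on other isoforms only. Models sharing an isoform made up 34.9% of the members and 15.9% of the background. Reads that fit several models of a gene are divided by Salmon's estimate, so the values of these members are uncertain in that respect. Whether models of different components share reads was not tested. Where a member shared its isoform, its partner was taken as the longest other model there, and the member was the shorter one in 24 of the 30 pairs. The median length was 249 bases for these members and 669 for their partners. No partner was a member.

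In these pairs the member and its partner, parts of the same assembled transcript, had different values. The log2 difference of control over heat had a median of 2.84 for the members and 0.88 for the partners. It was larger in the member in 28 of 30 pairs. The rule chose the members for a large difference and took no partner, which favours this order. Control 3 lay above every heat library in 27 of the 30 partners. Controls 1 and 2 both lay above every heat library in 9 and both lay below in 4. The same counts over the longer models of other pairs are not given here, so nothing is read from these. Within the long-fragment libraries the partners had a median of 1.82 and within the short-fragment libraries one of -0.07, while the members had 2.36 and 2.80. The member's share of the pair's reads, which does not depend on library scaling, had medians of 78.2%, 70.7% and 34.2% in controls 1 to 3 and of 27.4%, 28.0% and 24.8% in heat 1 to 3. Control 3 was thus nearer to the heat libraries than to the other controls in this measure.

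The same shift of reads was found over pairs from the whole background, to which the members belong. Over the 546 background models that shared an isoform with a longer one, the shorter model's share had medians of 78.7%, 68.2% and 38.1% in controls 1 to 3 and of 27.0% to 33.1% in heat. The shorter model had the larger log2 difference in 93.2% of these pairs. As background models, the shorter ones were required to have 10 CPM or more in every control, which favours a high share there. In 798 pairs chosen instead for a summed level of 20 CPM or more in every library, the shorter model's share was 57.5%, 44.7% and 19.7% in controls 1 to 3 and 14.6% to 16.8% in heat. The higher share of the shorter model in controls 1 and 2 was therefore not particular to the members, and its part in their low heat values was not tested.

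**Figure D4:**
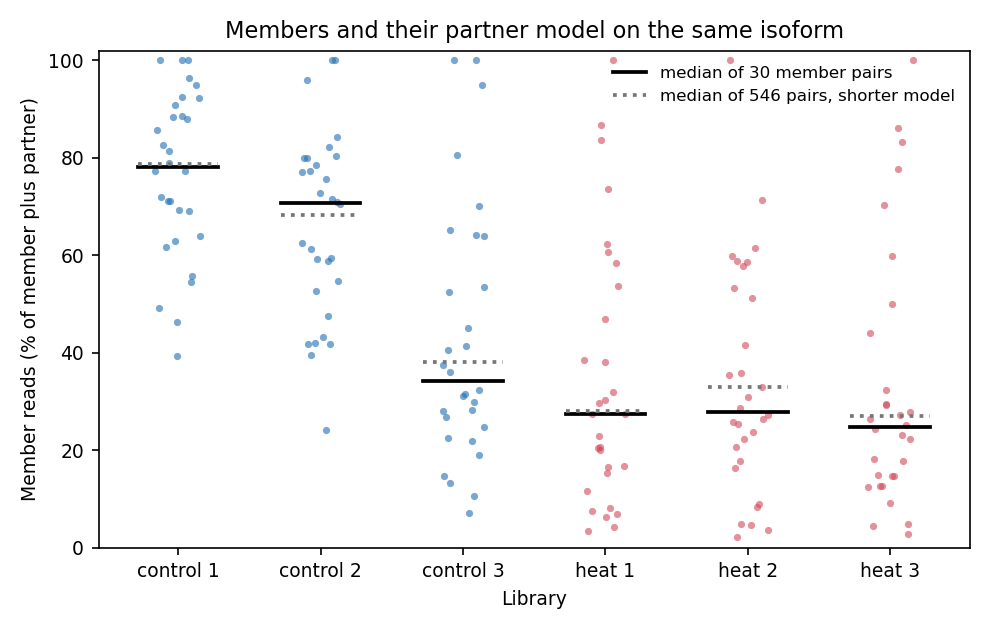
The member's reads as a percentage of the reads of the member and its longest partner on the same isoform, for 30 pairs in each library, with the median as a black line. Dotted grey lines give the median share of the shorter model over the 546 background pairs. Controls 1 and 2, at medians of 78.2% and 70.7%, stand above the other 4 libraries, at 24.8% to 34.2%.

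Some pairs, chosen after their values were seen, show the forms this took. TR64724 has a partner of 594 bases on its isoform, which stood at 114, 252 and 3870 CPM in controls 1 to 3 and at 29.3, 7.68 and 69.3 CPM in heat 1 to 3. Both of its models were thus higher in every control than in every heat library. The 219-base member with 376, 163 and 192 CPM in the controls has a partner of 996 bases, which stood at 30.5, 47.9 and 684 CPM in the controls and at 78.3, 45.6 and 120 CPM in heat. Here the partner was high in control 3, and controls 1 and 2 were within or below the range of the heat libraries.

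A 264-base member had 59.8, 53.4 and 26.8 CPM in controls 1 to 3 and 4.76, 8.24 and 6.43 CPM in heat 1 to 3. Its partner of 2532 bases had 23.2, 74.3 and 345 CPM in the controls and 137, 169 and 228 CPM in heat, so the long model was lower in controls 1 and 2 than in any heat library. A 189-base member had 94.9, 46.6 and 16.3 CPM in the controls and 4.02 to 5.01 CPM in heat, and its partner of 708 bases had 38.3, 38.3 and 94.0 CPM in the controls and 61.0, 53.7 and 28.0 CPM in heat. In this pair the partner's groups overlapped. Among all models sharing a gene with a member, 1 was higher in every heat library than in every control. It had 333 bases, lay on another isoform than its member of 279 bases, and stood at 0, 0 and 1.10 CPM in the controls and at 3.21, 2.47 and 1.93 CPM in heat.

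The reads of all models on an isoform were also added before the rule was applied. Of the 30 members' isoforms that held another model, 10 still met it. The 56 members alone on their isoform meet it by construction, which makes 66 of 86. With reads added over whole genes, 61 of the 86 genes met the rule. These include the 49 genes with a single model, which also meet it by construction. The 39 members that were alone in their component had a median of 381 coding bases, and 26 of them had 300 bases or more. TR38172, the 885-base member with a single heat read and the 1389-base member are among these 39.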

How the data were processed

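Per the submitters' processing notes, Salmon was the quantifier the authors used for the 6 libraries. Its version and its transcript reference: not given in the sources used here. Per the file headers, each deposited file holds estimated counts, TPM, length and effective length for 43380 models. A multiple of 3 was found for 99.99% of lengths, which are therefore called coding lengths. The authors' deposited table gives log2 values and p-values. Its fold changes are coded as control relative to heat, since their sign matches the higher mean CPM for 98.2% of models.

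CPM was computed from estimated counts and plain library sums. Log2 differences used group means plus 1 CPM. Exact 95% intervals are Clopper-Pearson intervals on pooled rounded counts. Length less effective length, as a median over models above 1000 bases, gave the fragment length, and the classes divide at 150 bases. Python 3.11.15, pandas 2.3.3 and scipy 1.17.1 were used. Size factors for alternatives came from edgeR 4.0.16 and DESeq2 1.42.0 in R 4.3.3. The rule was checked on simulated counts with planted falls in heat. Apart from these falls the simulated libraries shared the same expected proportions, so the check does not cover the library differences described above. Members and alternatives were chosen with earlier results of these data known. The rule for naming took 2 identifiers, the highest by control CPM and the widest gap, and gave other members by rank and length. The longest members, those with the steadiest controls and the example pairs were chosen after their values were seen.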

Additional observations from a re-analysis of the deposited data

How the results depend on the processing

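The set of 86 models moved with its thresholds. It held 135 with a minimum of 5 CPM in every control, 49 with 20 CPM, 279 with no minimum, 342 with a 2-fold gap and 35 with a 4-fold gap. TMM library sizes gave 95 models, 73 of them among the 86, DESeq2 size factors 93 with 71, and rounded counts 86 with 83. TPM gave 82 with 45. Leaving out 1 library gave 108 to 1852 models, the highest without control 3, and the median log2 difference then ran from 2.62 to 2.88. The members chosen without 1 library took 0.894% to 19.7% of control reads and 0.0891% to 2.51% of heat reads, since more models were admitted.

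Alternatives added after the data were seen gave 745 models without controls 1 and 2, with 8.18% of control 3 reads and 0.996% of heat reads, 1008 in the long-fragment libraries with a median log2 difference of 2.24, 2246 in the short-fragment libraries and 45 models of 300 bases or more. Summing to genes gave 66, summing to isoforms 70, and the longest model of each isoform 61. With 5 CPM added the median log2 difference was 2.14. By TPM the mean shares were 1.01% and 0.134%. Both named models kept their direction under every alternative run for them, which the rule's own choice favours. No paired analysis was possible because the heat and control values chose the members, so no test, paired or not, is given of their difference. Depth limits the low end, with 3 reads worth 4.11 CPM in control 2.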
